A study of Rattus norvegicus with 6 samples.

Results

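Nitric oxide synthesis and superoxide source genes are described here as 10 listed symbols: the nitric oxide synthase genes Nos1, Nos2 and Nos3, the cofactor synthesis genes Gch1 and Spr, the methylarginine hydrolase genes Ddah1 and Ddah2, the caveolin gene Cav1, and the NADPH oxidase genes Nox4 and Cyba. They were found by symbol in the gene counts of 6 RNA-seq libraries. Of the 10 symbols, 9 have a row among the 18237 rows, and 6 were among the 11726 genes with enough counts to be tested; Nos1 was not analysed here. The libraries came from cultured rat heart cells (source "Myocardial cells", cell type NRVM, the usual abbreviation of neonatal rat ventricular myocytes). The labels state an embryonic origin and culture in DMEM with 10% serum. One group carried a small interfering RNA against Mt2, a metallothionein gene (siMt2, n = 3 libraries), and the other a control siRNA (siNT, n = 3 libraries), so both groups received an siRNA. The shared protocol text also lists dexamethasone, isobutylmethylxanthine and insulin, without saying which cells received them. The labels do not say whether replicates were separate cultures, so a p-value here reflects library-to-library spread alone, and that spread may be technical. The project concerns nitrative damage after ischemia and reperfusion, which is the reason for looking at these genes.

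Nitric oxide is made from arginine by the nitric oxide synthases, which need tetrahydrobiopterin as a cofactor and are inhibited by asymmetric dimethylarginine. When nitric oxide meets superoxide, they combine to peroxynitrite, the species that nitrates protein tyrosines. In the heart, Nos1 and Nos3 are the usual constitutive synthases and Nos2 is induced by inflammatory signals, while NADPH oxidases, xanthine oxidase and mitochondria are the usual sources of superoxide.

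Library totals lay between 2859759 counts (siMt2 replicate 3) and 6817777 counts (siMt2 replicate 1). A count of 3 therefore equalled 0.438 to 1.06 CPM, the count relative to the library total after scaling with edgeR's TMM factors. The targeted transcript, Mt2a, stood at 70.7, 87.3 and 142 CPM in the libraries labelled siMt2, against 90.7, 169.9 and 93.3 CPM in the siNT libraries. The groups overlapped, and the log2 fold change was -0.28 (95% interval -1.42 to 0.87, edgeR adjusted p = 0.631), so the labels were not borne out by the transcript and siMt2 below means the library label. Cardiomyocyte markers were sparse: 8 of 10 listed had a row, 5 of these (Myh6, Actc1, Tnni3, Mybpc3 and Myl7) had under 10 counts over all 6 libraries, and Tnnt2 was the only one tested. Their summed level was 51.3 to 63.7 CPM in siMt2 libraries and 29.3 to 32.2 CPM in siNT libraries. Most of it was Tnnt2, at 48.5 to 57.5 CPM in siMt2 and 25.6 to 28.2 CPM in siNT libraries. Fibroblast markers (9 of 10 with a row, Pdgfra under 10 counts) summed to 9885 to 13857 CPM (siMt2) and 7601 to 7755 CPM (siNT). Most of this sum was Col1a1, at 6024 to 8946 CPM in siMt2 and 4583 to 4893 CPM in siNT libraries. Col1a2 varied from 238 to 1151 CPM within the siMt2 libraries. Smooth muscle markers (7 of 8 with a row) summed to 4146 to 4245 CPM in siMt2 and 2352 to 2390 CPM in siNT libraries. Skeletal myoblast markers (7 of 8 with a row, Myod1 and Des the highest) summed to 52.1 to 55.8 CPM in siMt2 and 28.7 to 32.5 CPM in siNT libraries, while Myog of the same list was lower (log2 fold change -1.47, edgeR adjusted p = 0.00239). In such bulk samples fewer cells of a type and less RNA per cell cannot be told apart.

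Among the 10 genes, 1 was higher and 2 were lower in siMt2 libraries. Cav1, which encodes the coat protein of caveolae that binds and restrains endothelial nitric oxide synthase, was 1.62-fold higher. Ddah1, which encodes an enzyme that degrades asymmetric dimethylarginine, was at 0.789 times and Cyba, which encodes the p22phox subunit of NADPH oxidases, at 0.763 times the siNT level. Of the 6 genes tested, edgeR's quasi-likelihood fit called 3 at an adjusted p under 0.05, 1 higher and 2 lower, where it called 50.9% of all genes tested (25.8% higher and 25.1% lower). The same 3 genes were those whose groups did not overlap in CPM, as was the case for 57.6% of all genes tested (28.9% higher and 28.7% lower). These shares are close to those of the whole table. The median absolute log2 fold change of the 6 genes was 0.28, against 0.33 for all genes tested.

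The start regions of these 3 genes are shown because they are the genes that changed, in both directions. Each is the 250 bases before the annotated start in RefSeq (build GRCr8, which is not the build of the counts), written 5′ to 3′ on the gene's strand, with GC boxes (GGGCGG on either strand, the letters bound by Sp1 family factors) in capitals.
Cav1, chr4:46606288-46606537, plus strand: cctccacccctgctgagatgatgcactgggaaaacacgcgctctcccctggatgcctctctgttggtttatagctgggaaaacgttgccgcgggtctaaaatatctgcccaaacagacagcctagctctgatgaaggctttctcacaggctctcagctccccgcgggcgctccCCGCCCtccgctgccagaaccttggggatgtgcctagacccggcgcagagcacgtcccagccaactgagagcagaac
Ddah1, chr2:237327562-237327811, plus strand: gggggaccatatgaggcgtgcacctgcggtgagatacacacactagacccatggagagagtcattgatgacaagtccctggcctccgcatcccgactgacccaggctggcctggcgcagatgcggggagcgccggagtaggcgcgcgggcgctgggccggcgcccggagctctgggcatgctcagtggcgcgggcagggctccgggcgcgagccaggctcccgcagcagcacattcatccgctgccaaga
Cyba, chr19:67404215-67404464, minus strand: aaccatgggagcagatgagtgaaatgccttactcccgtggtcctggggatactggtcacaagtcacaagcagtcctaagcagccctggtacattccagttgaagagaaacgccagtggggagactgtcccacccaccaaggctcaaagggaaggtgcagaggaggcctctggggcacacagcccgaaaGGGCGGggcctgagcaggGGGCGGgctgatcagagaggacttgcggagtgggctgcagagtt
The Cav1 window holds 1 GC box on the opposite strand, the Cyba window 2, at 62 and 44 bases before the start, and the Ddah1 window none. Among the 8 of 10 genes with a window in the table, 7 held a GC box in at least 1 of their windows. Of all 33469 single windows of this length, 30.5% hold a GC box. The first share is per gene and the second per window, so they are not directly comparable. The GC content of the windows of these 8 genes was 54% to 72.8%, against a median of 51.2% for all windows. Of 5 other motifs searched on both strands, Cav1 had matches to the TATA box letters (TATAAA, in 12.9% of windows) and to a hypoxia response core (ACGTG, in 16.6%). They lie at 184 and 27 bases before the start, both on the opposite strand, so the printed strand shows their reverse complements. Ddah1 and Cyba had no match to either motif, to the CCAAT box (34%), to the AP-1 site TGANTCA (6.34%) or to the antioxidant response core TGACNNNGC (10.1%). These are matches of letters, not measured binding sites, and Cav1 has a further annotated start whose window holds none of the 6 motifs.

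The 2 synthase genes with a row were close to undetected. Nos2, the inducible synthase, had 1, 2 and 1 counts in the siMt2 libraries, against 0, 1 and 0 counts in the siNT libraries. Nos3, the endothelial synthase, had 2, 0 and 0 counts in siMt2 libraries and 0, 0 and 1 in siNT libraries. The groups overlapped for both genes, and together they took 8 of 30244268 counts. Pooled over each group, Nos2 was at 0.287 CPM in siMt2 libraries (exact 95% Poisson interval 0.0783 to 0.736) and at 0.0616 CPM in siNT libraries (0.00156 to 0.343). Nos3 was at 0.144 CPM in siMt2 libraries (0.0174 to 0.519) and at 0.0616 CPM in siNT libraries (0.00156 to 0.343). These intervals cover counting error only, and both genes lay below the level that 3 counts give in any single library, so no fold change is given. The annotated span of Nos3 overlaps that of Atg9b, and the sources used here do not give whether counting used strand.

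Markers of the cells that usually carry these synthases were counted beside them, and the ranges of their summed levels did not overlap between groups. Endothelial markers (5 of 10 listed had a row) summed to 47.9 to 63.8 CPM in siMt2 libraries and 90.3 to 99.0 CPM in siNT libraries. The difference lay in Eng, at 31.6 ± 6.26 CPM in siMt2 and 73.0 ± 5.06 CPM in siNT libraries (edgeR adjusted p = 5.15e-08). Egfl7 (log2 fold change 0.39, adjusted p = 0.0739) and Vwf (-0.35, adjusted p = 0.398) did not pass the threshold, and Tie1 had 3 counts over all libraries. Leukocyte and macrophage markers (5 of 8 with a row) summed to 14.2 to 17.7 CPM in siMt2 and 22.7 to 27.3 CPM in siNT libraries, nearly all from Cd14, and the pan-leukocyte gene Ptprc had 2 counts. Neuron and Schwann cell markers (7 of 9 with a row) summed to 15.8 to 20.6 CPM in siMt2 and 6.45 to 8.67 CPM in siNT libraries, led by Tubb3, with Snap25 and Elavl4 under 10 counts. The part of these cells in the results below was not tested.

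**Figure D1:**
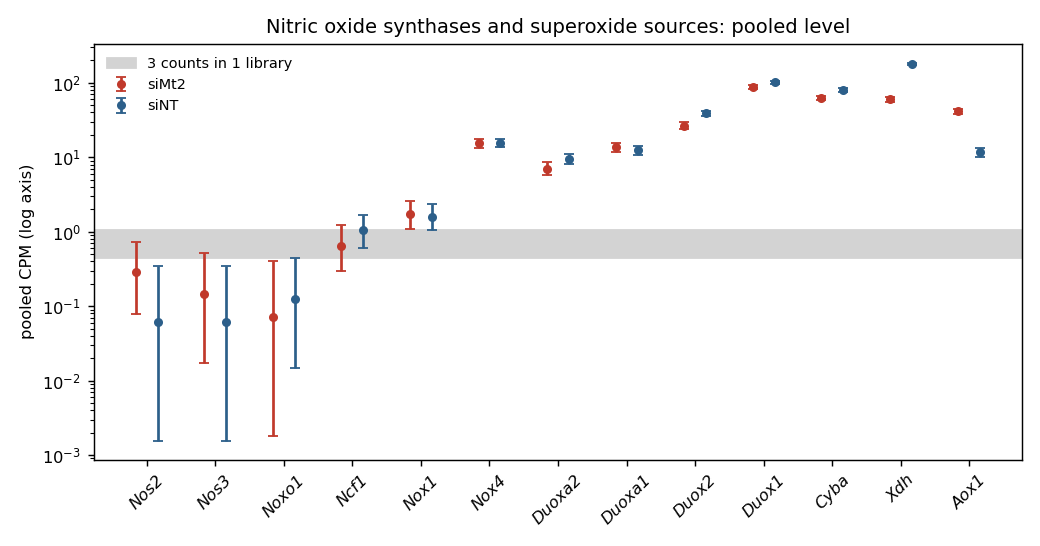
Pooled CPM of nitric oxide synthases and superoxide sources in siMt2 libraries (red) and siNT libraries (blue) on a log axis, with exact 95% Poisson intervals; the grey band is the level of 3 counts in 1 library, 0.438 to 1.06 CPM. Values are not divided by gene length, so heights compare groups and not genes; Nos2, Nos3 and Noxo1 lie below the band, and Nox4, Cyba, both dual oxidases, Xdh and Aox1 well above it.

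Cofactor synthesis was present at a low level and neither gene measured was shown to change. Gch1 encodes GTP cyclohydrolase 1, the first and rate-limiting enzyme of tetrahydrobiopterin synthesis. It had 9, 15 and 7 counts (1.31, 3.55 and 2.465 CPM) in siMt2 libraries and 4, 7 and 12 counts (0.723, 1.67 and 1.84 CPM) in siNT libraries. The groups overlapped, since siMt2 replicate 1 lay below siNT replicates 2 and 3. Pooled levels were 2.23 CPM in siMt2 libraries (95% Poisson interval 1.51 to 3.16) and 1.42 CPM in siNT libraries (0.898 to 2.12), and the gene was too low to be tested.

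Spr encodes sepiapterin reductase, the last enzyme of the same synthesis. Its level was 3.36, 4.49 and 3.17 CPM in siMt2 libraries (23, 19 and 9 counts), against 3.79, 7.65 and 2.15 CPM in siNT libraries (21, 32 and 14 counts). Both the highest and the lowest value belonged to siNT libraries. The log2 fold change was -0.225 (SE 0.40, 95% interval -1.07 to 0.61, edgeR adjusted p = 0.667). The siNT values varied by 62.4% of their mean, where counting error alone gives 22.4%. The log2 ratio of Gch1 to Spr differed by 0.87 between siMt2 and siNT libraries (means -0.66 and -1.53; exact two-sided permutation p = 0.4, adjusted 0.4 over the 2 ratios tested, where 0.1 is the smallest p that 20 assignments allow).

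The paralogous hydrolases differed in what they showed, although their responses were not shown to be unequal. Ddah1 and Ddah2 belong to the family that breaks down asymmetric dimethylarginine, and this activity is best established for Ddah1. Ddah1 stood at 87.7, 89.2 and 93.7 CPM in siMt2 libraries (601, 377 and 266 counts), against 115, 110.4 and 115 CPM in siNT libraries (639, 462 and 751 counts). Every siMt2 library lay below every siNT library, and the replicates were tight. The means were 90.2 ± 3.10 CPM in siMt2 and 114 ± 2.80 CPM in siNT libraries (SD, n = 3 each), which is -0.34 on the log2 scale (SE 0.07, 95% interval -0.48 to -0.20, edgeR adjusted p = 0.000229). The difference between the means was larger than the spread between replicates of either group.

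Ddah2 was at 18.4, 16.1 and 8.80 CPM in siMt2 libraries (126, 68 and 25 counts), against 13.9, 13.1 and 12.6 CPM in siNT libraries (77, 55 and 82 counts). The siMt2 replicates 1 and 2 lay above all siNT libraries and siMt2 replicate 3 lay below all of them. The means were 14.4 ± 5.00 CPM in siMt2 and 13.2 ± 0.673 CPM in siNT libraries, and the log2 fold change of 0.20 (SE 0.21, 95% interval -0.23 to 0.63) did not pass (edgeR adjusted p = 0.446). The siMt2 values varied by 34.7% of their mean, against 14.5% from counting error. Without siMt2 replicate 3 the log2 fold change was 0.40 (adjusted p = 0.0557), and without siMt2 replicate 1 it was -0.034. The log2 ratio of Ddah1 to Ddah2 was 2.25, 2.46 and 3.40 in siMt2 libraries and 3.04, 3.06 and 3.185 in siNT libraries. The mean difference of -0.39 had an exact two-sided permutation p of 0.4 (adjusted 0.4 over the 2 ratios tested), and without siMt2 replicate 3 it was -0.74 (p = 0.1, the smallest possible).

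Cav1 had the largest log2 fold change of the 6 genes tested. It stood at 313, 325 and 319 CPM in siMt2 libraries (2144, 1376 and 907 counts), against 197, 202 and 193 CPM in siNT libraries (1089, 844 and 1259 counts). No siMt2 library came near the siNT range. The means were 319 ± 6.20 CPM in siMt2 and 197 ± 4.39 CPM in siNT libraries (SD, n = 3 each), or 0.70 on the log2 scale (SE 0.05, 95% interval 0.60 to 0.80, edgeR adjusted p = 2.81e-10). Replicates varied by 1.94% of their mean in siMt2 and 2.23% in siNT libraries, no more than the 2.77% and 3.11% that counting error gives for these groups. Over the 14 alternatives run, the log2 fold change lay between 0.68 and 0.77. The fibroblast and smooth muscle marker sums given above were also higher in siMt2 libraries, and both of these cell types carry caveolae. Of 8 fibroblast markers tested 6 were higher and 0 lower, where 25.8% and 25.1% of all genes tested were. Col1a2 and Col3a1 did not pass the threshold, and of the higher ones Dcn and Lum had only 50 and 51 counts over all 6 libraries. Of 7 smooth muscle and pericyte markers tested 5 were higher and 1 lower, beside the same shares of all genes tested. The lower one was the pericyte receptor gene Pdgfrb (log2 fold change -0.46, edgeR adjusted p = 5.89e-08). The part of these cells in the Cav1 difference was not tested.

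**Figure D2:**
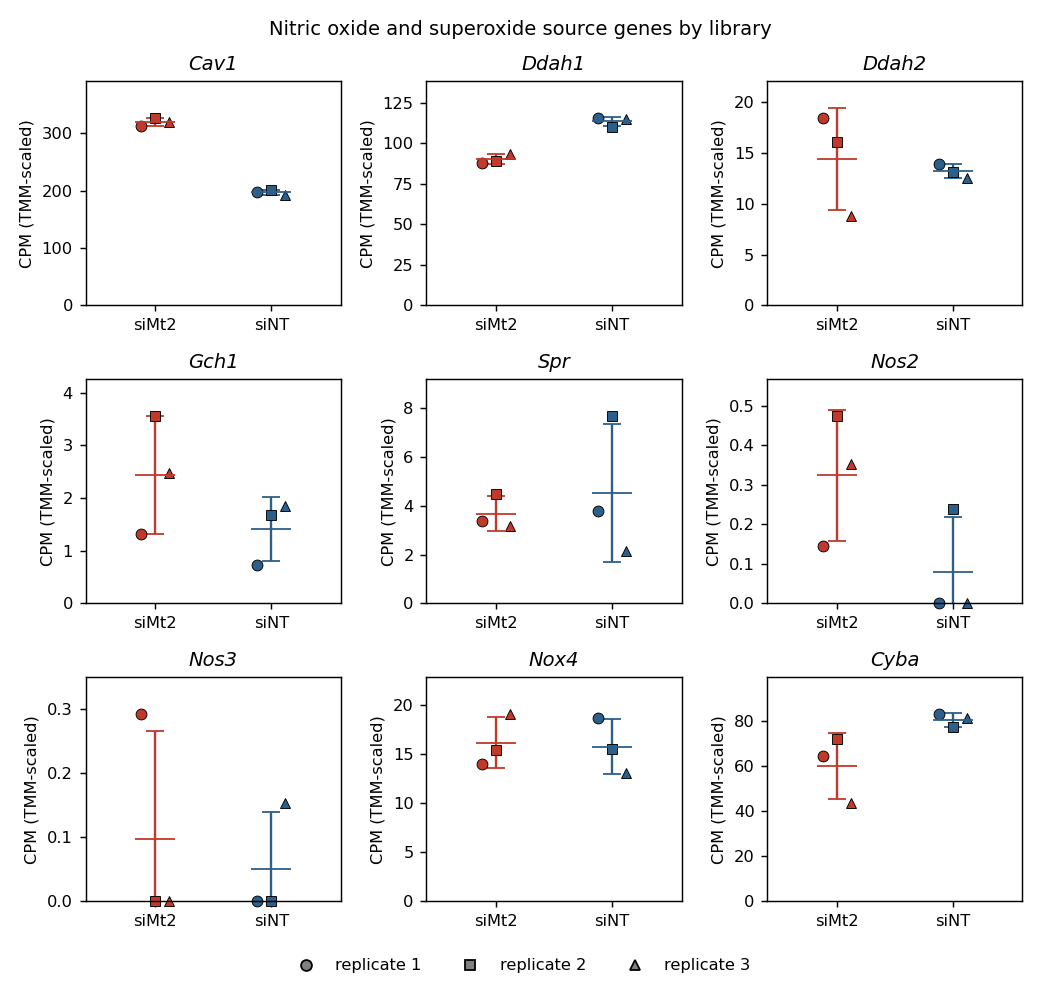
TMM-scaled CPM of the 9 genes with a row, by library (circle, square and triangle for replicates 1, 2 and 3), with the mean and SD of siMt2 (red, left) and siNT (blue, right); each axis starts at 0 and has its own scale, and SD bars are cut at 0. Cav1 is separated upward (313 to 325 against 193 to 202 CPM), Ddah1 and Cyba downward, and siMt2 replicate 3 (red triangle) is the lowest value for Cyba and Ddah2.

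Superoxide sources of the NADPH oxidase family were represented by Nox4, with no difference detected between groups, and by its partner Cyba, which was lower. Nox4 encodes an oxidase that is active without cytosolic activators and releases mostly hydrogen peroxide. Its level was 14.0, 15.4 and 19.0 CPM in siMt2 libraries (96, 65 and 54 counts), against 18.6, 15.5 and 13.0 CPM in siNT libraries (103, 65 and 85 counts). The groups covered almost the same range. The means were 16.1 ± 2.59 CPM in siMt2 and 15.7 ± 2.79 CPM in siNT libraries, and the log2 fold change was 0.0089 (SE 0.18, edgeR adjusted p = 0.97). Its 95% interval, -0.37 to 0.38, leaves room for a level of 0.776 to 1.30 times that of siNT libraries.

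Cyba encodes the membrane subunit that stabilises Nox1, Nox2 and Nox4. It stood at 64.5, 71.7 and 43.7 CPM in siMt2 libraries (442, 303 and 124 counts), against 82.7, 77.0 and 80.9 CPM in siNT libraries (458, 322 and 528 counts). All siMt2 libraries lay below all siNT libraries, with siMt2 replicate 3 the lowest. The means were 59.9 ± 14.5 CPM in siMt2 and 80.2 ± 2.95 CPM in siNT libraries (SD, n = 3 each), which is -0.39 on the log2 scale (SE 0.13, 95% interval -0.67 to -0.11, edgeR adjusted p = 0.0216). Without siMt2 replicate 3, the library with the fewest counts, it was -0.25 (adjusted p = 0.0121), and the call was lost without siNT replicate 1, 2 or 3 (adjusted p = 0.0966, 0.0646 and 0.0748). The siMt2 values varied by 24.3% of their mean, against 6.74% from counting error.

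**Figure D3:**
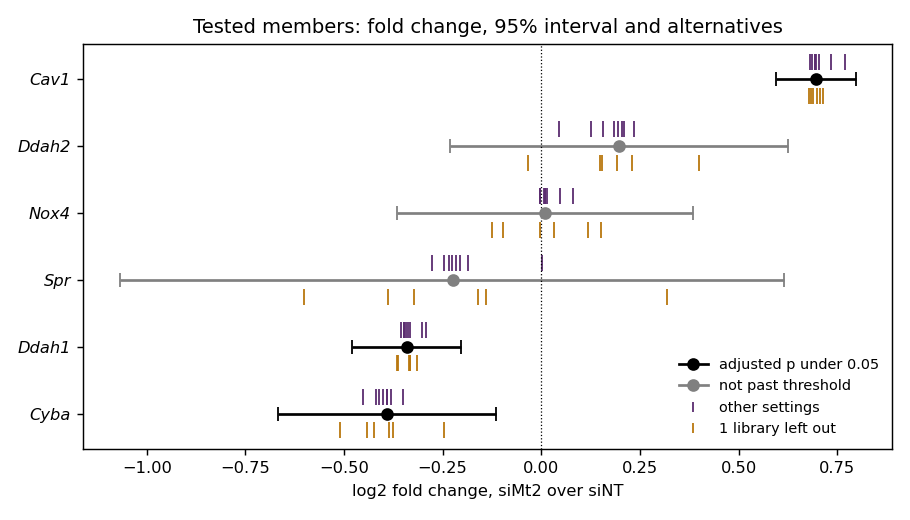
Log2 fold change, siMt2 over siNT, of the 6 genes tested, with its 95% interval (black where the adjusted p was under 0.05, grey otherwise); purple ticks are the 8 other settings and orange ticks the fits with 1 library left out. All ticks lie on one side of 0 for Cav1, Ddah1 and Cyba, and on both sides for Nox4, Ddah2 and Spr.

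The other superoxide sources went both ways. Of 23 listed genes 17 had a row and 11 were tested, of which 2 were higher and 4 lower (25.8% and 25.1% of all genes tested), with a median log2 fold change of -0.06, where that of all genes tested was 0.0005. Xdh, which encodes xanthine dehydrogenase, fell to 60.9 ± 3.28 CPM in siMt2 libraries, against 179 ± 2.00 CPM in siNT libraries (log2 fold change -1.57, SE 0.07). Aox1, an aldehyde oxidase gene, rose to 41.6 ± 5.49 CPM in siMt2 libraries, against 11.8 ± 2.14 CPM in siNT libraries (1.82, SE 0.15). These were the widest changes of the list, in opposite directions, with edgeR adjusted p of 1.08e-13 and 4.51e-09. The dual oxidase gene Duox2 fell to 27.7 ± 3.83 CPM in siMt2 libraries, against 39.2 ± 0.927 CPM in siNT libraries (-0.53, SE 0.12, adjusted p = 0.000877), and Sh3pxd2a, an adaptor for podosomes that can organise NADPH oxidases, fell as well (-0.39, SE 0.05, adjusted p = 5.47e-07). Duox1, named after its values were seen, was at 87.7 ± 0.909 CPM in siMt2 and 102 ± 2.40 CPM in siNT libraries (-0.22, SE 0.07, adjusted p = 0.00974). The sources used here do not give how reads shared by the similar Duox1 and Duox2 were counted.

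Cytosolic partners of the phagocyte-type oxidases were scarce. Over all 6 libraries Ncf1, the organiser subunit p47phox, had 26 counts, the oxidase gene Nox1 50 and the organiser Noxo1 3 (Ncf1 and Nox1 were named after their values were seen). Nox3, Cybb, Ncf4 and Noxa1 were not analysed here. Rac1, the small GTPase that activates several oxidases, was at 484 ± 9.74 CPM in siMt2 and 496 ± 14.8 CPM in siNT libraries, also named after its values were seen (log2 fold change -0.04, SE 0.04, edgeR adjusted p = 0.5).

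Of 16 listed genes for proteins that bind or regulate the synthases, 13 had a row and 11 were tested. Of these transcripts 6 were higher and 4 lower, where 25.8% and 25.1% of all genes tested were, with a median log2 fold change of 0.45. Dynll1, a dynein light chain that has also been described as a protein inhibitor of Nos1, stood at 215 ± 12.2 CPM in siMt2 and 109 ± 3.29 CPM in siNT libraries (log2 fold change 0.98, SE 0.06). The muscle caveolin gene Cav3 rose (0.92, SE 0.15), so both Cav1 and Cav3 were higher. Hsp90ab1, a chaperone that supports the active form of Nos3, fell to 1500 ± 139.7 CPM in siMt2 libraries, against 2369 ± 29.7 CPM in siNT libraries (-0.66, SE 0.05). Their edgeR adjusted p was 3.97e-11, 3.74e-05 and 1.29e-07 in the order given.

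Of 16 listed genes of arginine supply, arginine use and methylarginine formation, 13 had a row and 10 were tested. Of these 4 were higher and 1 lower, a share called that is close to the 50.9% of all genes tested, with a median log2 fold change of 0.07. The arginine importer gene Slc7a1 fell to 329 ± 5.10 CPM in siMt2 libraries, against 479 ± 19.0 CPM in siNT libraries (log2 fold change -0.54, SE 0.05, edgeR adjusted p = 4.43e-09). The large neutral amino acid transporter gene Slc7a5 (0.43, SE 0.04), the arginine methyltransferase gene Prmt3 (0.43, SE 0.11) and the mitochondrial arginase gene Arg2 (1.19, SE 0.32) rose, with adjusted p of 6.49e-08, 0.00233 and 0.00402. Arg2 was at 6.57, 10.6 and 5.99 CPM in siMt2 libraries and at 3.97, 4.30 and 2.15 CPM in siNT libraries, so its groups did not overlap.

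Of 6 other tetrahydrobiopterin genes, all with a row, 4 were tested, of which 2 were higher and 1 lower (25.8% and 25.1% of all genes tested), with a median log2 fold change of 0.65. Pts, the enzyme between Gch1 and Spr, was at 6.82 ± 1.10 CPM in siMt2 and 3.48 ± 1.25 CPM in siNT libraries (log2 fold change 0.99, SE 0.31, edgeR adjusted p = 0.0104), a call that DESeq2 (adjusted p = 0.0669), equal depth (0.0712) and leaving out siNT replicate 3 (0.0712) did not keep. Qdpr, the main recycling reductase, fell to 21.2 ± 2.40 CPM in siMt2 libraries, against 31.1 ± 3.00 CPM in siNT libraries (-0.56, SE 0.13, adjusted p = 0.00155). The regulator of Gch1, Gchfr, named after its values were seen, had 17, 11 and 3 counts in siMt2 libraries and 3, 0 and 5 in siNT libraries. In CPM this was 2.48, 2.60 and 1.06 in siMt2 libraries, against 0.542, 0 and 0.766 in siNT libraries. The groups did not overlap, as for 57.6% of all genes tested, but Gchfr itself was too low to be tested.

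Downstream of nitric oxide, 8 of 14 listed genes had a row and 4 were tested, of which 1 was higher and 2 lower, where 25.8% and 25.1% of all genes tested were (median log2 fold change -0.34). Pde5a, the phosphodiesterase that degrades cyclic GMP, fell to 7.81 ± 2.26 CPM in siMt2 libraries, against 17.2 ± 1.66 CPM in siNT libraries (log2 fold change -1.06, SE 0.20, edgeR adjusted p = 0.000178). Prkg1, the cyclic GMP-dependent kinase, fell by 0.69 on the log2 scale (SE 0.20, edgeR adjusted p = 0.00681), a call lost at equal depth (0.127) and without siMt2 replicate 2 (0.0512). Vasp, a substrate of that kinase in the actin cytoskeleton, rose by 0.50 (SE 0.07, edgeR adjusted p = 6.22e-06). Gucy1a3, a subunit of the nitric oxide receptor guanylyl cyclase, named after its values were seen, had 2 counts over all 6 libraries.

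**Figure D4:**
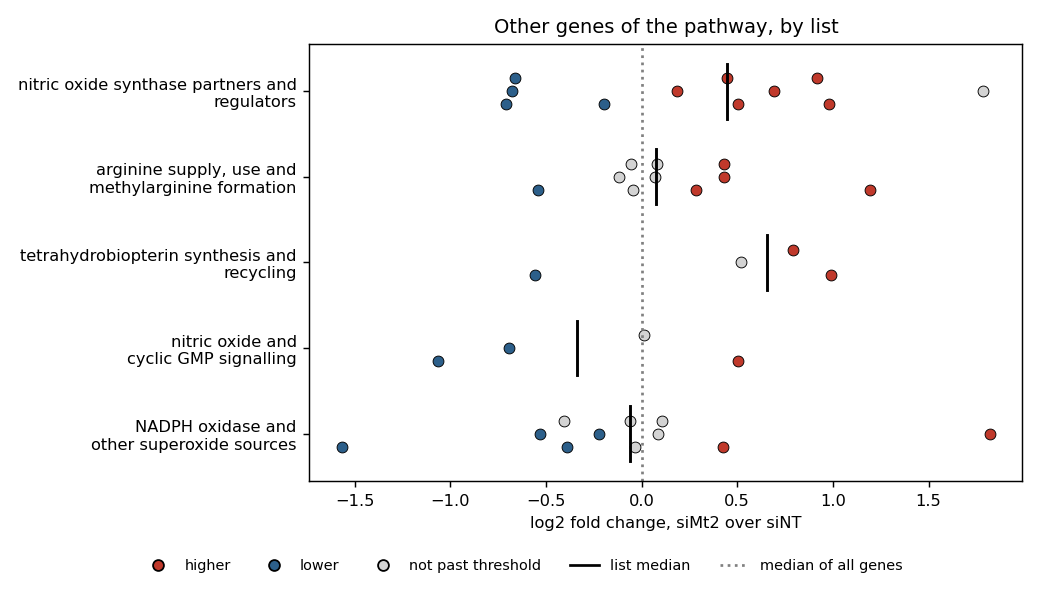
Log2 fold change, siMt2 over siNT, of each tested gene in 5 pathway lists (red higher, blue lower at an adjusted p under 0.05, grey not past the threshold), with each list's median as a black line and the median of all genes as a dotted line. Each list holds genes on both sides of 0, from Xdh at -1.57 to Aox1 at 1.82.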

How the data were processed

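RNA-seq libraries of 3 siMt2 and 3 siNT samples were grouped by their titles. The authors deposited raw gene counts, 1 file per library, with no normalization; per the submitters' processing notes the tools were featureCounts, HISAT2 2.2.1, Trimmomatic 0.40, DESeq2 and limma on rn6, with no order or settings. The 6 files list the same 18237 rows, except that 25 rows whose names a spreadsheet had turned into dates (0.26% of counts) were written in different ways and were matched by position. There were 0 columns without a sample.

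The fit used edgeR 4.0.16 (R 4.3.3): filterByExpr with a minimum count of 10, TMM scaling and the two-sided quasi-likelihood test. P-values were adjusted over every gene tested by Benjamini-Hochberg, with a threshold of 0.05. The SE was taken from the F statistic. Ratios used TMM-scaled counts with 0.5 added and an exact permutation test. The procedure was tested on simulated counts. Within-group library pairs differed by 1.58 to 2.30 times the counting expectation, so none was taken as a repeat. Alternatives included DESeq2 1.42.0 and limma-voom (limma 3.58.1). Per pathway list, up to 4 called genes with the lowest adjusted p are named; exceptions are stated, a few listed genes are counted with their lists and not reported here by name, and single marker genes were named after their values were seen. Members and lists were chosen with earlier results of these data known. RefSeq tables of GRCr8 gave names and start regions; 8 of 10 genes had a window.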

Additional observations from a re-analysis of the deposited data

How the results depend on the processing

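Across 14 alternatives (DESeq2 size factors, upper quartile scaling, no filter, a stricter filter, the replicate block, DESeq2, limma-voom, equal depth and 6 fits with 1 library left out), Cav1 stayed called higher (log2 fold change 0.68 to 0.77) and Ddah1 called lower (-0.37 to -0.29). Cyba stayed negative (-0.51 to -0.25) and missed the threshold in the 3 fits without a siNT library, so the number of members called lower was 1 to 2 with libraries left out. Without siMt2 replicate 1, 2 or 3 the Cyba call was kept (edgeR adjusted p = 0.0483, 0.00311 and 0.0121). The cause of the lost calls was not tested. Values near 0 changed sign: Spr was 0.0011 with limma-voom and -0.60 to 0.32 with libraries left out, Nox4 was -0.0041 without a filter, -0.0024 with limma-voom and -0.12 to 0.15 with libraries left out, Ddah2 was -0.034 to 0.40 and Mt2a -0.56 to 0.052; the cause was not tested. The tetrahydrobiopterin list had 0 genes higher with DESeq2, 1 at equal depth and 1 to 3 with libraries left out, and the cyclic GMP list 1 lower at equal depth and 1 to 2 with libraries left out, where the main counts were 2 and 2. Upper quartile scaling moved the median of all genes to 0.04. The replicate numbers did not pair the libraries (correlations of same-numbered deviations -0.0018, -0.06 and 0.02), and with the replicate block Cav1 was 0.69, Ddah1 -0.34 and Cyba -0.42, with 2968 genes higher and 2929 lower against 3026 and 2945. At these depths, where 3 counts equal 0.438 to 1.06 CPM, Nos2, Nos3 and Gch1 were too low to be tested.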
